A study of Drosophila melanogaster with 36 samples.

Results

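Odorant binding proteins are small secreted proteins, and the Drosophila melanogaster genes for them, named Obp followed by a cytological position, form the family described here. Members were all gene symbols that begin with Obp and a digit, a rule on names that used no measured value, and 51 of the 17582 symbols in the files met it. The lush gene, which encodes a binding protein for the male pheromone cVA under another name, lies outside that rule and is given where it bears on a result. The study measured whole wild-type (WT) flies of both sexes after inhalation of CMIT/MIT, a biocide made of isothiazolinone compounds, and after filtered air. Exposed groups had received an aerosol of 330 mg/m3 during 1 hour, and air groups had breathed filtered air. Males and females were each sampled on days 1, 2 and 7 in both arms, which gives 12 groups of 3 libraries and 36 libraries in all. Strain and age are not stated, the labels do not say whether replicates are separate cultures, and the series text records that not all exposed flies survived. Every p-value below therefore measures the spread between these samples, which may be technical.

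In an insect antenna, odorant binding proteins are secreted by support cells into the fluid that bathes olfactory neurons, where they are thought to carry hydrophobic odorants or take them up. The family has spread beyond smell: some members are made in taste hairs, some in the male reproductive tract and passed on in seminal fluid, and some in fat body or glia. The genes lie largely in tandem clusters, so that neighbours often arose by duplication and yet can be used in different tissues.

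The assay was sequencing of the 3' end of transcripts, so a transcript gives counts without regard to its length. Levels are given as CPM, the count of a gene scaled to the library total, and fold changes come from edgeR's quasi-likelihood test with TMM scaling. Depth ranged from 4681333 to 15444994 counts in male and from 9525565 to 17182966 in female libraries, so that 3 counts correspond to 0.175 CPM in the deepest and 0.641 CPM in the shallowest library. A pair of libraries carried markers of both sexes. The library labelled replicate 3 of exposed males on day 2 went against its label: it held 6700 CPM of the yolk protein transcript Yp1 and 4129 CPM of the ovarian transcript dhd, both within the female range. Its roX1, a male RNA, was 210 CPM, against 847 to 1721 CPM in the other males. The library labelled replicate 1 of exposed females on day 2 held 6206 CPM of Yp1 and 254 CPM of roX1, against at most 7.01 CPM of roX1 in the other females. They are called the mixed libraries below and were kept under their labels, so exposed male values of day 2 include 1 library with much female RNA. Results that rest on them are given with and without them. In whole flies, fewer cells of a type and less RNA per cell cannot be told apart.

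The 51 members are spread over chromosome arms as 29 on 2R, 12 on 3R, 6 on X, 2 on 2L and 2 on 3L. All 51 matched the BDGP6 annotation of the dm6 assembly by symbol. Of these, 16 overlap another annotated gene, and since the strand setting of the counting is not given in the sources used here, their counts may include reads of that partner. Obp50b and Obp50c are annotated over the same interval, 2R 14371186 to 14373006, and Obp57d overlaps the cuticle protein gene Cpr57A on the same strand. All 3 had no count in any library.

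The family ranged from silent to among the better detected transcripts of the fly. By its highest group mean, each member fell into 1 of 5 classes. No count was recorded for 5 members, namely Obp47b, Obp50b, Obp50c, Obp56b and Obp57d. Another 11 stayed under 1 CPM, 11 reached 1 to 10 CPM and 17 reached 10 to 100 CPM. The other 7 reached 100 CPM or more: Obp19d, Obp44a, Obp51a, Obp56d, Obp56g, Obp99b and Obp99c. A filter on low counts left 27 members to be tested in females, 33 in males and 34 in the fit of both sexes, and 18 were tested in neither sex. Members left out are described by these levels only.

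**Figure D1:**
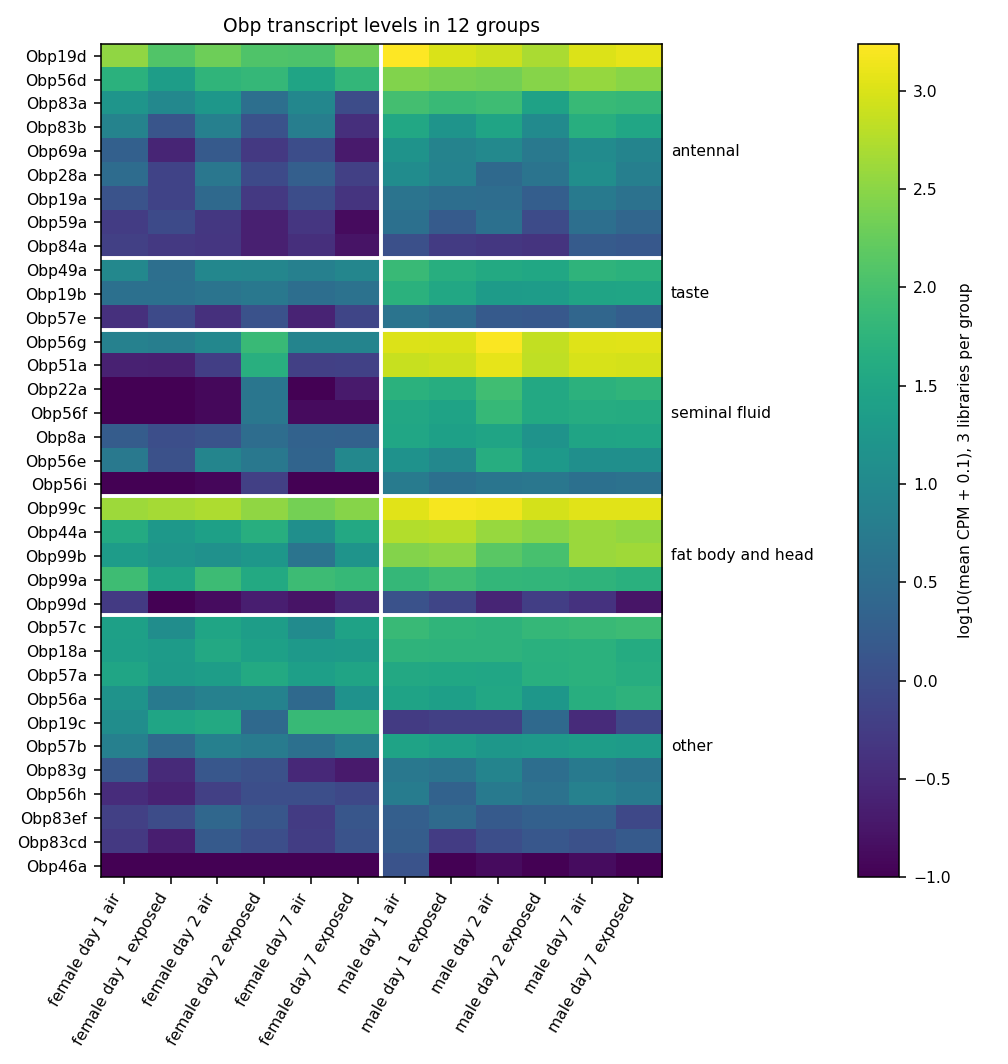
Mean CPM (colour, log scale) of the Obp genes whose mean reached 1 CPM in some group, for each of the 12 groups of 3 libraries, with genes grouped by where the family is known to act. Female columns are darker, meaning lower, than male columns for nearly every gene, and Obp19c is the gene that is bright in females and dark in males.

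Summed over the family, Obp transcripts took several times more of a male library than of a female one. The air males had 6489 ± 1170 CPM on day 1, 6529 ± 893 CPM on day 2 and 6063 ± 593 CPM on day 7 (mean ± SD, n = 3 each). The air females had 1127 ± 330 CPM, 1108 ± 544 CPM and 649 ± 43.6 CPM on the same days. No male air library came near the female range, whose highest library was at 1736 CPM while the lowest male air library was at 5138 CPM. Among exposed groups the means were 792 ± 89.9, 900 ± 532 and 899 ± 83.9 CPM in females and 6053 ± 584, 4006 ± 2067 and 6160 ± 1118 CPM in males. Without the mixed libraries, the exposed day 2 means were 593 CPM in females and 5160 CPM in males.

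A few genes made up most of those sums, and they were not the same in the sexes. In air females, Obp99c, listed here with fat body and head members, held 39.9% of the family's CPM, at 383 ± 249 CPM over 9 libraries (lowest 218, median 255, highest 971). Obp19d, also called PBPRP-2 and known from chemosensory hairs, followed at 221 ± 125 CPM, then Obp99a at 81.0 ± 30.8, Obp56d at 46.7 ± 16.1 and Obp19c at 40.6 ± 27.3 CPM. The means of Obp56d and Obp19c did not differ beyond their spread. In air males, 3 genes stood level at the top: the seminal fluid protein gene Obp56g at 1236 ± 319 CPM, Obp99c at 1226 ± 310 CPM and Obp19d at 1199 ± 550 CPM. Obp51a, another seminal fluid member, followed at 977 ± 237 CPM and Obp44a, known from glia, at 446 ± 92.9 CPM. The leading 3 male genes did not differ beyond their spread.

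Since 3' counts do not grow with transcript length, CPM was taken as the level, and dividing by the annotated transcript length hardly reordered the members. The order by CPM and the order by CPM per kilobase had a Spearman rho of 0.993 in females over 39 detected members and of 0.996 in males over 45, given as a description. Of the first 5 members, 4 were shared by both orders in each sex.

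Sex gave the most calls of any comparison in the family. Over the 9 air libraries of each sex, 28 of 34 tested members passed an adjusted p of 0.05 (edgeR, Benjamini-Hochberg over all genes tested), 27 of them lower in females and 1 higher. Whole males and females differ in most genes: 86.7% of all tested genes passed in either direction, and 50.7% passed as lower in females. The share of members called was therefore near that of all genes, while the direction was more often male, with 79.4% of members called lower in females. The median log2 difference, female minus male, was -2.56 over the members and -0.69 over all genes tested. In the exposed arm, 31 members passed, 30 lower in females and 1 higher, against 85.9% of all genes (52% lower and 33.9% higher).

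**Figure D2:**
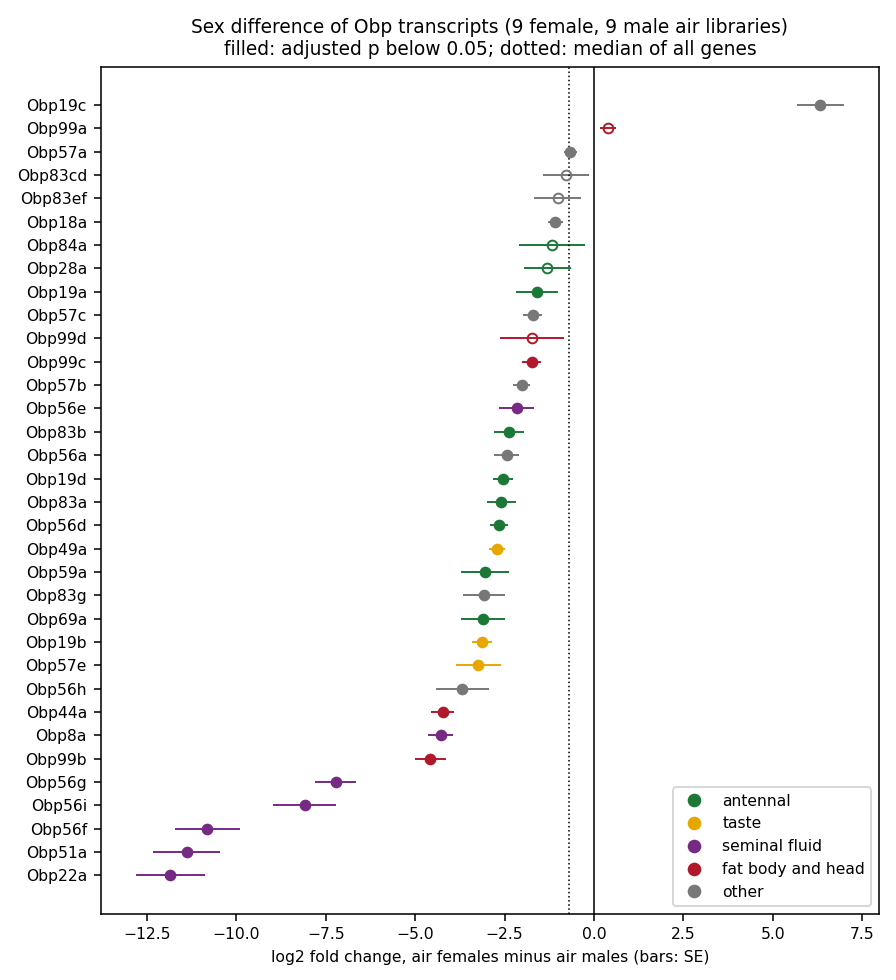
Log2 difference of female minus male air libraries (9 each) for every tested Obp member, coloured by the tissue group, with filled points where the adjusted p is below 0.05 and a dotted line at the median of all genes. The seminal fluid members Obp22a, Obp51a, Obp56f, Obp56i and Obp56g reach furthest to the male side and Obp19c alone lies far to the female side at 6.33.

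The seminal fluid members made the widest gaps. All 7 of them (Obp8a, Obp22a, Obp51a, Obp56e, Obp56f, Obp56g and Obp56i) were lower in air females, with a median log2 difference of -8.09. Obp22a lay between 40.1 and 93.6 CPM in the 9 air males, with a median of 57.9, and gave a single count over all 9 air females. With so few counts the ratio of males to females, 6968, is loosely set, with a 95% exact binomial interval of 1250 to 275279 that covers counting error only. Obp56f gave 2 counts over the 9 air females and lay between 29.9 and 73.6 CPM in air males, with a median of 44.8 (ratio 2664, interval 737 to 22007). Obp56i, weaker at 2.31 to 9.74 CPM in air males with a median of 4.30, gave 1 count over all air females (ratio 501, interval 89.5 to 19831).

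Obp51a had more counts in air females, 45 over the 9 libraries, though at most 13 in any of them. It lay between 616 and 1347 CPM in air males with a median of 936, and between 0 and 0.763 CPM in air females with a median of 0.306, a fitted log2 difference of -11.39 (SE 0.94, adjusted p = 5.64e-11, edgeR). Obp56g lay between 833 and 1692 CPM in air males with a median of 1235, and between 5.66 and 12.5 CPM in air females with a median of 8.26 (log2 difference -7.22, SE 0.58, adjusted p = 4.6e-11, edgeR). Every air female library thus held some Obp56g, unlike Obp22a. The same 9 female libraries held little of the accessory gland peptide SP, the sex peptide of seminal fluid, at no more than 3.61 CPM. Obp56e was the mildest of the 7, at a median of 16.8 CPM in air males and 3.91 CPM in air females with ranges that overlapped (log2 difference -2.16, SE 0.49, adjusted p = 0.000214, edgeR).

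Members known outside the reproductive tract were also male-high. Obp99b, known as tsx and for its male-specific use in fat body, lay between 60.2 and 435 CPM in air males with a median of 309, and between 3.67 and 24.3 CPM in air females with a median of 11.5. Its log2 difference was -4.58 (SE 0.44, adjusted p = 3.16e-10, edgeR). Obp44a lay between 312 and 588 CPM in air males and between 9.06 and 44.9 CPM in air females, a log2 difference of -4.23 (SE 0.32). Neither gene's ranges overlapped. Of the 9 antennal members, 7 passed as lower in females, with a median of -2.54. The antennal pair Obp83a and Obp83b differed by -2.59 (SE 0.42) and -2.37 (SE 0.42). Of the 4 taste members 3 were tested and all 3 passed as lower in females. The 12 genes of a photoreceptor list, added after values had been seen, were all lower in air females too, with a median of -2.32. The part of head RNA in the sensory members' sex difference was not tested.

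The 6 tested members that did not pass were Obp28a, Obp83cd, Obp83ef, Obp84a, Obp99a and Obp99d. Obp99a was the only other member whose fitted difference was on the female side, at 0.40 (SE 0.22, adjusted p = 0.098, edgeR). It lay between 45.4 and 143 CPM in air females and between 44.9 and 86.2 CPM in air males, with ranges that overlapped.

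Obp19c was the single member higher in females, and its neighbours were not. It lay between 6.25 and 87.0 CPM in the 9 air females with a median of 38.4, and between 0.0648 and 1.12 CPM in the 9 air males with a median of 0.246. The ranges did not overlap, and the log2 difference was 6.33 (SE 0.66, adjusted p = 1.31e-09, edgeR). Obp19c sits at X 20417921 to 20418964 on the minus strand, inside a cluster of 5.24 kb that runs Obp19a, Obp19b, Obp19c, Obp19d from X 20415744 to 20420979. The other 3 genes of that cluster lie on the plus strand and were all lower in females, at -1.58 (SE 0.59) for Obp19a, -3.14 (SE 0.28) for Obp19b and -2.54 (SE 0.28) for Obp19d. None of the 4 overlaps another annotated gene.

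The exposure question was whether breathing CMIT/MIT changed these transcripts, and in females the clearest member was Obp83b. Obp83b (also OS-E) and Obp83a (OS-F) are neighbours on 3R, at 5976177 to 5976817 and 5972155 to 5975245, both on the minus strand, and both encode proteins of antennal hairs. In females on day 1, Obp83b lay at 5.07, 11.5 and 6.90 CPM in the 3 air libraries and at 2.07, 0.666 and 0.884 CPM in the 3 exposed libraries. On day 2 it lay at 10.2, 6.19 and 4.07 CPM in air and at 1.33, 0.872 and 1.01 CPM after exposure, the first of which is the mixed library. On day 7 it lay at 7.43, 6.93 and 5.09 CPM in air and at 0.299, 0.296 and 0.204 CPM after exposure. Every exposed female library was below every air library of its day, and below the air libraries of the other days.

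In the test of each day, Obp83b fell on day 2 by 2.99 on the log2 scale (SE 0.58, adjusted p = 0.0211, edgeR) and on day 7 by 4.49 (SE 0.66, adjusted p = 0.0285, edgeR). Its day 1 value, -2.68 (SE 0.56, adjusted p = 0.0523, edgeR), missed the threshold. The day 7 libraries held 8 counts of it in the exposed arm against 190 in air, a ratio of air to exposed of 24.3 with a 95% interval of 12.1 to 57.1 for counting error only. Fitted on the 6 libraries of its day alone, the day 2 value of Obp83b did not pass (adjusted p = 0.667, edgeR), and the day 7 value did (adjusted p = 0.0218, edgeR). Single libraries decided these daily calls. Without any one of the 3 exposed libraries or air replicate 1 on day 2, the adjusted p ranged from 0.0527 to 0.0909. On day 7, leaving out any library but air replicate 3 gave 0.101 to 0.491.

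A contrast of exposed minus air averaged over the 3 days, chosen after the data were seen, used all 18 female libraries. There Obp83b was lower, at -3.39 (SE 0.35, adjusted p = 0.000184, edgeR) and so was Obp83a, at -2.29 (SE 0.40, adjusted p = 0.0272, edgeR), against 0.212% of all genes in either direction, 0.152% lower and 0.0606% higher. Obp83b held its call without each of the 18 libraries in turn. Obp83a lost it without air replicate 2 of day 1, exposed replicates 1, 2 or 3 of day 1, air replicate 2 of day 7 or exposed replicates 1, 2 or 3 of day 7, with an adjusted p of 0.0520 to 0.0860 in those fits.

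The arms of its neighbour Obp83a overlapped on day 1 and lay apart later. In females on day 1 Obp83a lay at 12.1, 27.0 and 9.98 CPM in air and at 10.8, 10.3 and 7.34 CPM after exposure. On day 2 it lay at 30.95, 11.2 and 10.5 CPM in air and at 6.22, 1.16 and 2.92 CPM after exposure. Day 7 values were 13.4, 9.97 and 4.07 CPM in air and 1.30, 0.988 and 0.306 CPM after exposure. No daily value passed, at -2.74 (SE 0.68, adjusted p = 0.118, edgeR) on day 2 and -3.34 (SE 0.76, adjusted p = 0.51, edgeR) on day 7. Among exposed females alone, Obp83a differed between days (adjusted p = 0.0358, edgeR), by -1.53 on day 2 and -3.40 on day 7 relative to day 1. That call was lost without any one of the 6 exposed libraries of days 1 and 7 (adjusted p 0.0697 to 0.101). Whether its exposure effect differed between days did not pass (adjusted p = 0.424, edgeR).

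**Figure D3:**
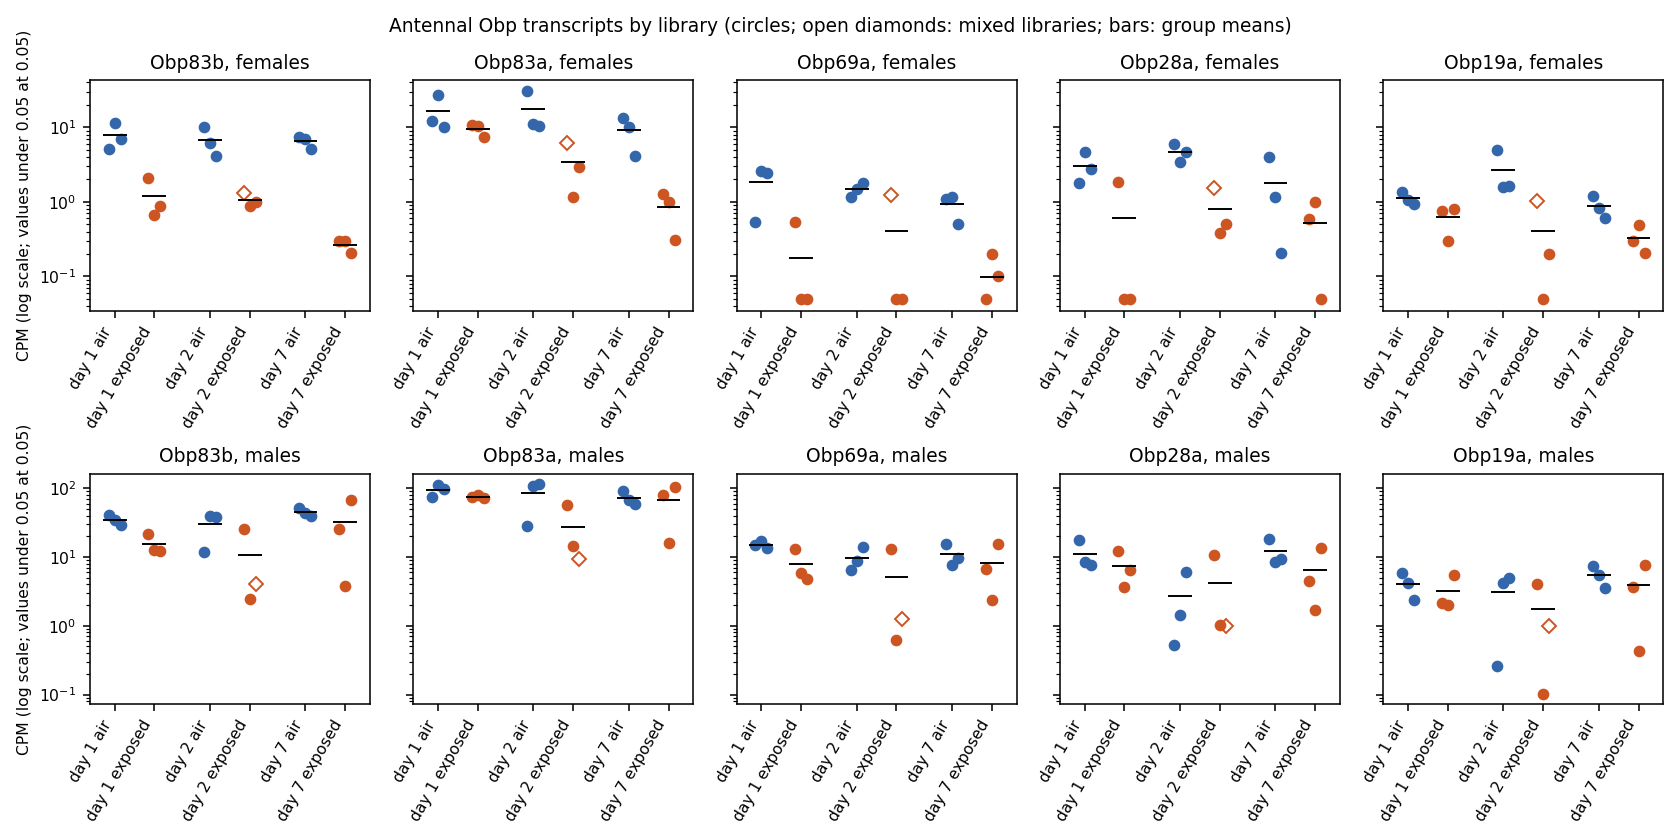
CPM per library (log axis, values under 0.05 drawn at 0.05) of 5 antennal Obp genes in females and males, in air and exposed arms of days 1, 2 and 7, with bars at group means and open diamonds for the mixed libraries. In females the exposed Obp83b points lie below all air points on each day, while its male points of both arms overlap on days 2 and 7.

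The other antennal members did not pass. Of the 9 antennal members 7 were tested in females, and over the mean of days all 7 had negative values with a median of -2.26, against -0.01 over all genes tested, and 2 passed, Obp83a and Obp83b. All 7 were negative on days 1 and 2, but on day 7 5 were negative and 2 positive, Obp19d and Obp56d. With these abundant members, the summed level of the 9 antennal members on day 7 was higher after exposure, at 219 to 301 CPM against 110 to 205 CPM in air. Obp69a, an antennal protein, lay at 0.543, 2.59 and 2.47 CPM in air females of day 1 and at 0.537, 0 and 0 CPM after exposure, and over the mean of days at -2.79 (SE 0.81, adjusted p = 0.258, edgeR). Obp28a, known from large-pored antennal hairs, had -2.26 (SE 0.75, adjusted p = 0.397, edgeR) and Obp19a -1.75 (SE 0.56, adjusted p = 0.353, edgeR). Pooled over the 3 libraries of each arm on day 1, Obp69a had 64 counts in air and 7 after exposure, so that these genes rest on few reads. Obp59a, needed for hygrosensation, and Obp84a were too low in females to be tested.

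Antennal transcripts outside the family had negative values without passing. The antennal genes a5, Os-C and a10 had mean-of-days values of -2.51 (SE 0.61), -2.55 (SE 0.64) and -2.05 (SE 0.64) in exposed females, with adjusted p of 0.147, 0.169 and 0.341 (edgeR). The summed level of a 15-gene olfactory organ list ranged from 25.6 to 38.6 CPM in air and 9.25 to 20.3 CPM in exposed females on day 1, and from 21.2 to 45.8 against 7.66 to 18.4 CPM on day 2. On day 7 these sums were 10.3 to 26.6 CPM in air and 8.50 to 13.9 CPM after exposure. Its defining members Orco, the odorant co-receptor, and lush were near 0 in females: Orco was at or under 0.735 CPM in every female library and lush at or under 1.89 CPM. Summed over the 9 female libraries of each arm, Orco had 34 counts in air and 6 after exposure, and lush 64 and 6. The part of olfactory organ RNA in the Obp83 result was not tested.

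Eye transcripts were mostly positive on days 1 and 2 and mostly negative on day 7. The 12-gene photoreceptor list, which includes the rhodopsin gene ninaE, summed to 901 to 965 CPM in air and 880 to 1479 CPM in exposed females on day 1, to 565 to 841 against 973 to 1326 CPM on day 2 and to 1077 to 1411 against 899 to 1113 CPM on day 7. None of the 12 passed in any daily female contrast (edgeR), with 10, 11 and 3 of them positive on days 1, 2 and 7 and medians of 0.20, 0.61 and -0.28. Their mean-of-days values had a median of 0.17. Of the 29 chemosensory partner genes in the files, such as ionotropic receptors and odorant-degrading esterases, 13 were tested in females and none passed on any day (edgeR). The membrane protein gene Snmp1, which serves pheromone detection and is on the olfactory organ list, had a mean-of-days value of -0.17 (SE 0.32).

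The second member to change in females was Obp19c, and it did so on day 2. On day 1 it lay at 6.25, 10.7 and 19.0 CPM in air and higher, at 42.2, 24.1 and 26.8 CPM, after exposure. On day 2 it lay at 36.01, 38.5 and 38.4 CPM in air and at 3.88, 0 and 4.33 CPM after exposure. By day 7 it lay at 58.2, 71.1 and 87.0 CPM in air and at 91.3, 52.9 and 67.1 CPM after exposure. The arms were apart upward on day 1, apart downward on day 2 and overlapping on day 7.

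The fall on day 2 was -4.03 on the log2 scale (SE 0.64, adjusted p = 0.00435, edgeR), and it passed without each of the 6 day 2 libraries in turn (adjusted p 0.000772 to 0.0085). Fitted on the 6 libraries of day 2 alone, it did not pass (adjusted p = 0.761, edgeR), with the same size of -4.03. The day 1 rise of 1.38 (SE 0.56, adjusted p = 0.288, edgeR) did not pass. In the edgeR fit of all female libraries, Obp19c was the only member whose exposure effect differed between days (adjusted p = 0.0122), against 0.445% of all genes. DESeq2 called 5 members, and edgeR without 1 library at a time called 1 to 4. In air females Obp19c stood higher on the later days, by 1.84 on day 2 and 2.55 on day 7 relative to day 1, which did not pass (adjusted p = 0.115, edgeR).

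Transcripts of late egg chambers and of a fat body list were also low on day 2. Cp18 and Cp36 encode eggshell proteins of the chorion. Cp18 lay at 244, 424 and 405 CPM in air females of day 2 and at 6.32, 0.775 and 22.2 CPM in exposed ones. Cp36 lay at 1777, 1822 and 1115 CPM in air and at 15.5, 1.26 and 108 CPM after exposure. Of a 17-gene ovary list, 5 passed as lower on day 2 and none on days 1 or 7 (edgeR), where 0.435% of all genes passed as lower on day 2. Those 5 were the chorion genes Cp7Fb, Cp15, Cp18, Cp36 and Cp38. The list's median on day 2 was -1.75, with 13 negative and 4 positive, the positive ones being nos, osk, bcd and vas, which are expressed earlier in the germ line. Of 10 tested genes of the fat body list, 8 were negative on day 2 with a median of -1.36. Lsp2 and the yolk protein genes Yp2 and Yp3 passed as lower (edgeR). The fat body list summed to 20366 to 29787 CPM in air and 6932 to 12984 CPM after exposure, without overlap. Yolk protein transcripts count in that sum, and the tissue they came from was not tested. The same library, exposed replicate 2, was lowest for Obp19c, Cp18 and Cp36. On day 1 the chorion gene Cp7Fb was apart upward, like Obp19c. It lay at 93.9, 125 and 129.5 CPM in air females and at 352, 262 and 372 CPM after exposure. The day 1 arms of Cp15, Cp18, Cp36 and Cp38 overlapped. Whether ovary or fat body RNA has a part in the Obp19c values was not tested.

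**Figure D4:**
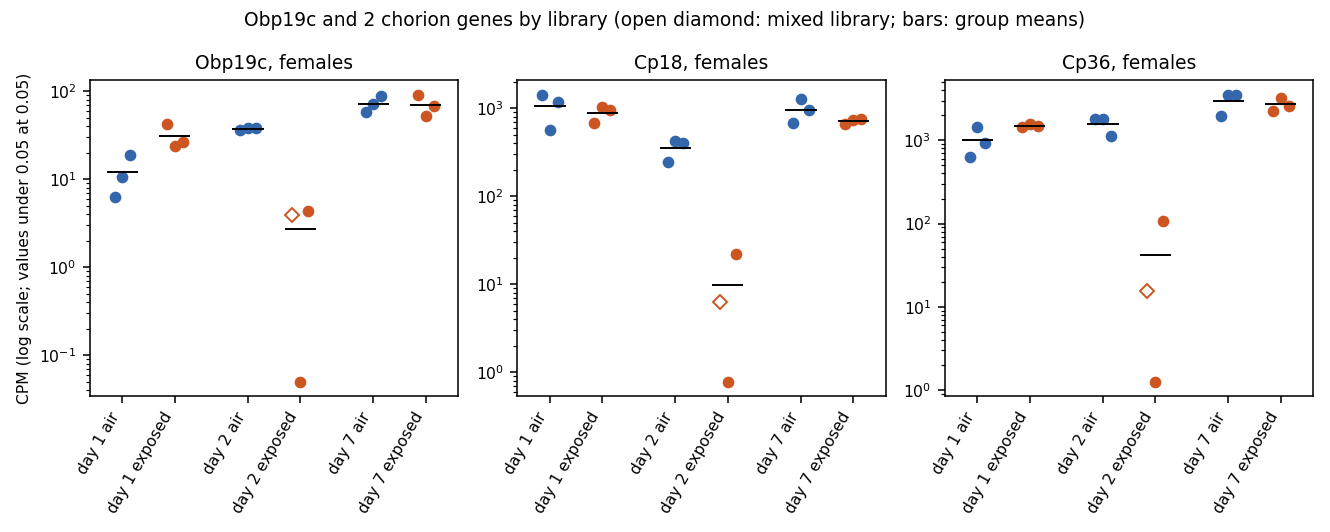
CPM per library (log axis, values under 0.05 drawn at 0.05) of Obp19c and the chorion genes Cp18 and Cp36 in females, air and exposed, on days 1, 2 and 7, with bars at group means and an open diamond for the mixed library. All 3 genes are lowest in the 3 exposed libraries of day 2, and Obp19c is next lowest in air on day 1, at 6.25 to 19.0 CPM. Outside those 3 libraries, the lowest Cp36 value is also in air on day 1 (624 CPM), and that of Cp18 in air on day 2 (244 CPM).

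Counted over the family, exposure calls in females were few. On day 1 no member of 27 tested passed (edgeR), against 0.263% of all genes (0.091% higher and 0.172% lower), while 12 had an unadjusted p below 0.05, or 44.4% of members against 12.7% of all genes. DESeq2 called 3 members on day 1 (Obp19d, Obp49a and Obp83b) among 224 genes. On day 2 the members past the threshold were Obp19c and Obp83b, both lower, against 0.455% of all genes (0.0202% higher and 0.435% lower). On day 7 it was Obp83b alone, and that was the only gene of 9893 tested to pass, 0.0101%. The median log2 value of the 27 members was -1.08 on day 1, -0.81 on day 2 and 0.35 on day 7, and that of all genes was within 0.01 of 0 on each day. The series text itself used a looser rule of over 1.5-fold with an unadjusted p below 0.05. By it 1 member was higher and 10 lower on day 1, where 9.63% of all genes met it, 3.53% higher and 6.11% lower. On day 2 it gave 2 higher and 8 lower members (7.09% of all genes, 2.73% higher and 4.36% lower). Day 7 gave 7 higher and 2 lower members (2.7% of all genes, 2.19% higher and 0.505% lower).

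**Figure D5:**
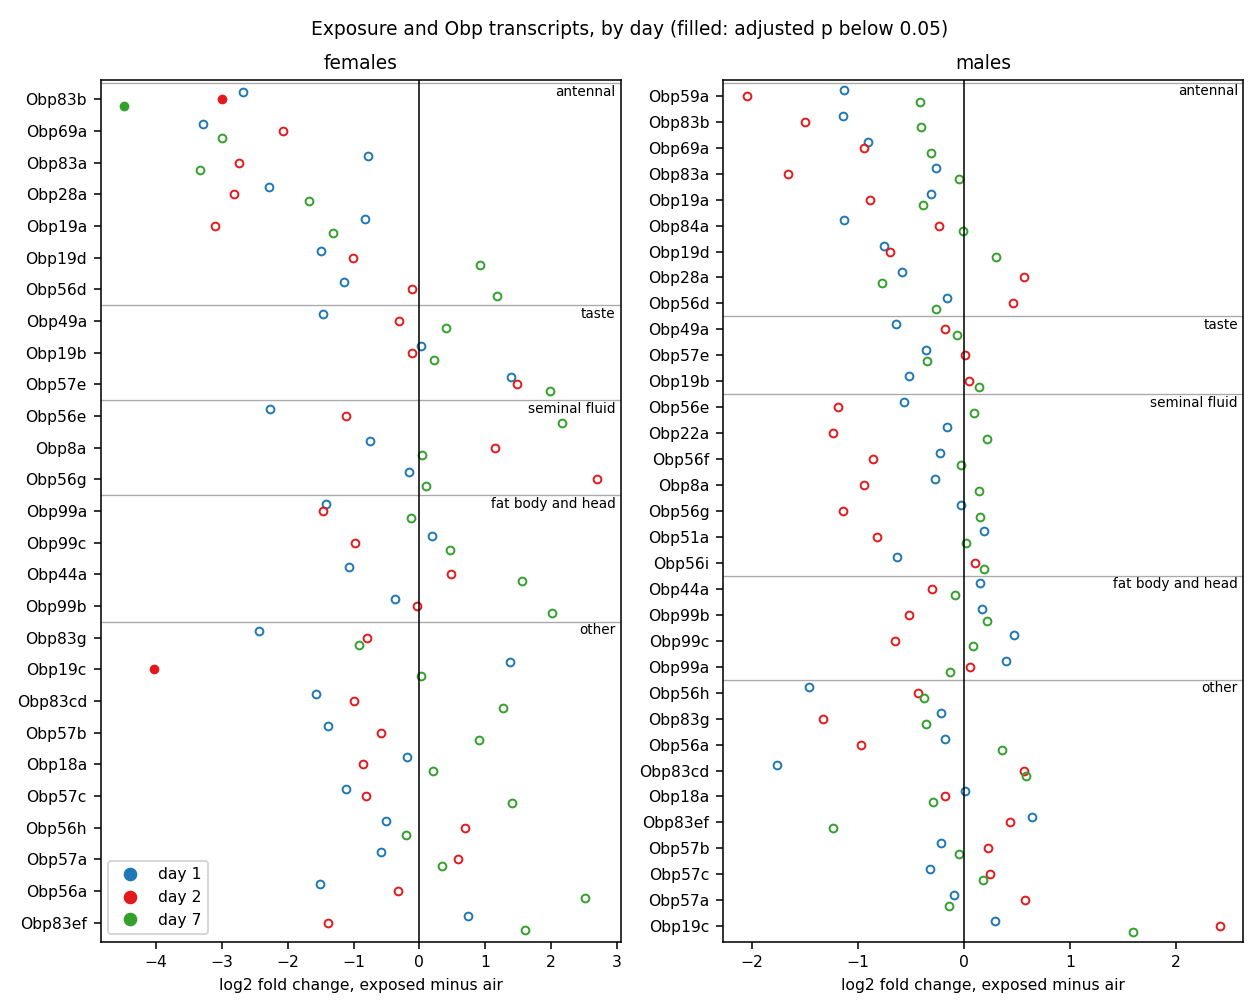
Log2 value of exposed minus air for every tested Obp member by day, in females (27 members) and males (33 members), with filled points where the adjusted p is below 0.05. Female points sit mostly below 0 on days 1 and 2 with medians of -1.08 and -0.81 and mostly above 0 on day 7, and male medians stay between -0.44 and -0.05.

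A further set of female members had opposite values on days 1 and 7. In Obp19d, Obp44a, Obp56a, Obp56d, Obp57b and Obp57c, all 3 exposed libraries were below all air libraries on day 1 and above them on day 7. Arms apart downward on day 1 were seen in 9.41% of all genes, and arms apart upward on day 7 in 7.31%. The share of all genes that met both conditions was not computed. Obp19d lay at 428, 425 and 193 CPM in air and at 132, 87.3 and 147 CPM after exposure on day 1. Its day 7 values were 139, 124 and 78.9 CPM in air and 168, 230 and 218 CPM after exposure. Obp56a lay at 11.3, 22.6 and 11.01 CPM in air and at 5.06, 6.15 and 4.42 CPM after exposure on day 1. On day 7 it lay at 2.61, 3.36 and 2.04 CPM in air and at 8.87, 21.1 and 13.1 CPM after exposure.

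None of the 6 passed on either day. The largest values among them were -1.51 (SE 0.56, adjusted p = 0.255, edgeR) on day 1 and 2.52 (SE 0.60, adjusted p = 0.682, edgeR) on day 7, both of Obp56a. The joint test of a difference between days gave adjusted p of 0.0691 for Obp56a, 0.123 for Obp19d, 0.135 for Obp56d, 0.196 for Obp57c, 0.265 for Obp57b and 0.297 for Obp44a (edgeR). The air arm itself was lower on day 7 than on day 1 in these genes, by -2.50 in Obp56a and -1.61 in Obp19d (adjusted p = 0.139 and 0.166, edgeR). In all, on CPM after TMM scaling, the arms of 12 of 27 members did not overlap on day 1, where 16.6% of all genes did not. On day 2 this held for 6 members (10.7% of all genes) and on day 7 for 14 (18.2% of all genes).

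The taste member Obp49a, known from taste organs where bitter compounds suppress the response to sugar, had the next smallest p to Obp83b on day 1. It lay at 9.60, 11.6 and 7.31 CPM in air and at 4.68, 3.04 and 2.48 CPM after exposure, with no overlap and a value of -1.46 (SE 0.37, adjusted p = 0.103, edgeR). On days 2 and 7 its arms overlapped. Obp57e, known from taste hairs of the legs, stayed at or under 1.73 CPM in every female library, and its neighbour Obp57d had no count.

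Across days, no member differed among air females (edgeR), where 0.131% of all genes passed. At an unadjusted p below 0.05 there were 11 members, 40.7% against 14% of all genes, and DESeq2 called 2 (Obp19d and Obp56a) among 267 genes. Among exposed females 4 members did, against 3.68% of all genes: Obp19c (adjusted p = 0.00198), Obp83a (0.0358), Obp56d (0.0465) and Obp56g (0.0477, all edgeR). Obp56d, listed here as antennal, lay at 36.1, 17.8 and 13.7 CPM on day 1, at 90.6, 60.7 and 50.5 CPM on day 2 and at 48.1, 68.0 and 77.2 CPM on day 7 in exposed females. Every later exposed library was above every day 1 library. Its call was lost without any one of the exposed libraries other than replicate 1 of day 1 and replicate 3 of day 2 (adjusted p 0.0571 to 0.209).

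The Obp56g call rested on the mixed library. In exposed females of day 2 it lay at 214 CPM in that library and at 4.27 and 8.55 CPM in the other two. On days 1 and 7 exposed females lay between 4.24 and 14.1 CPM. Without the mixed library the adjusted p for a difference between days was 0.829 (edgeR). The same library held Obp51a at 144 CPM, Obp56f at 14.1 CPM and Obp22a at 13.4 CPM, and the sex peptide transcript SP at 598 CPM, while no other female library exceeded 0.763, 0.105 and 0.204 CPM for these 3 members.

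In males no member passed for exposure on any day. On day 1, 0 of 33 passed by edgeR and 0 of 46 by DESeq2. By edgeR, 1 member had an unadjusted p below 0.05 (3.17% of all genes), and no gene of 12871 tested passed (0%). The smallest p was that of Obp56h, a member linked to courtship behaviour. It lay at 6.004, 5.28 and 6.67 CPM in air and at 0.908, 1.95 and 3.41 CPM after exposure, without overlap (-1.46, SE 0.57, adjusted p = 1, edgeR). Obp19d followed at 970, 2382 and 1847 CPM in air and 1193, 670 and 1097 CPM after exposure, with overlap (-0.76, SE 0.41).

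On day 2 in males, edgeR called 0 of 33 and 0% of all genes, with 9 members at an unadjusted p below 0.05, all lower. That was 27.3% of members, where 5.3% of all genes were lower by that measure, 16.5% higher and 21.8% in either direction. DESeq2 called 2, Obp22a and Obp56g, among 822 genes. Obp22a lay at 91.2, 75.2 and 93.6 CPM in air and at 62.1, 35.9 and 10.8 CPM after exposure, the last in the mixed library (-1.23, SE 0.38, adjusted p = 0.0924, edgeR). Obp56g lay at 1482, 1663 and 1692 CPM in air and at 1333, 565 and 259 CPM after exposure (-1.15, SE 0.37, adjusted p = 0.101, edgeR). Both were lower in exposed replicates 2 and 3 than in exposed replicate 1, which was itself below every air library of that day. Without replicate 1 of the exposed arm, edgeR called 9 of 36 members lower on day 2, including 5 of the seminal fluid set and Obp83a and Obp83b, among 2490 genes called in either direction. The exposed arm then held replicate 2 and the mixed library. Without the mixed libraries it called none.

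On day 7 in males, edgeR called 0 of 33 members and DESeq2 0 of 46. None of the 33 had an unadjusted p below 0.05 (0.932% of all genes), and 0% of all genes passed. The 2 smallest p belonged to Obp19c, at 0.246, 0.120 and 0.342 CPM in air and 1.10, 0.427 and 0.563 CPM after exposure (1.59, SE 1.46), and to Obp83ef at -1.24 (SE 1.19). No male member's exposure effect differed between days by either tool, where 2 had an unadjusted p below 0.05 (7.65% of all genes) and 0% of all genes passed. Over the mean of days 0 passed by either tool. At an unadjusted p below 0.05 there were 3, all lower: Obp56h, Obp59a and Obp83b. Of all genes, 2.54% were lower by that measure and 8.67% met it in either direction. Median values of the 33 members were -0.26, -0.44 and -0.05 on days 1, 2 and 7. On CPM after TMM scaling, arms did not overlap for 6 members on day 1 (13.2% of all genes), 2 on day 2 (11.6%) and 3 on day 7 (8.5%). By the looser rule of the series text, day 1 gave 1 lower member (2.9% of all genes, 1.23% higher and 1.67% lower). Day 2 gave 9 lower and none higher, where 21.4% of all genes met that rule, 16.4% higher and 5.01% lower, and day 7 gave none (0.925% of all genes, 0.738% higher and 0.186% lower).

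In males the Obp83 values were low in single libraries of both arms. Obp83b lay at 40.7, 34.2 and 29.1 CPM in air and 21.3, 12.7 and 12.03 CPM after exposure on day 1, which did not overlap (-1.15, SE 0.76). The photoreceptor list was apart the same way in males that day, at 5061 to 6489 CPM in air and 3304 to 4775 CPM after exposure, and its part in the Obp83b values was not tested. On day 2 it lay at 11.65, 40.2 and 38.1 CPM in air and 25.5, 2.46 and 4.10 CPM after exposure. Day 7 values were 51.5, 44.0 and 39.9 CPM in air and 25.4, 3.85 and 67.0 CPM after exposure. Air replicate 1 and exposed replicates 2 and 3 of day 2, and exposed replicate 2 of day 7, were low. Exposed replicate 3 of day 2 is the mixed library, with much female RNA. The antennal gene Os-C was low in the same 4 libraries, at 1.75, 0.103, 1.47 and 1.50 CPM, while the other males held 2.92 to 24.8 CPM. Over the mean of days, Obp83b had -1.02 in males (SE 0.44, adjusted p = 0.565, edgeR).

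Whether a member's exposure effect differed between the sexes was tested over all 36 libraries. On day 1 no member passed, of 34 tested by edgeR and 46 by DESeq2. By edgeR, 3 had an unadjusted p below 0.05, or 8.82% of members against 8.04% of all genes, and 0.0151% of all genes passed. The 2 smallest p on day 1 were those of Obp99a, -1.85 (SE 0.56, adjusted p = 0.399, edgeR), and Obp57b, -1.19 (SE 0.56, adjusted p = 0.605, edgeR), female minus male effect. On day 7 none passed by either tool. By edgeR 0% of all genes passed, while 5 members had an unadjusted p below 0.05, or 14.7% of members against 1.33% of all genes. The 2 smallest p on day 7 were those of Obp83b, -4.12 (SE 1.17), and Obp83a, -3.32 (SE 1.07), both with an adjusted p of 1.00 (edgeR). The female fall of Obp83b is therefore not shown to differ from its male values.

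On day 2, 5 members passed by edgeR, against 12.2% of all genes (7.76% higher and 4.47% lower in females): Obp19c with a lower effect in females (-6.39, SE 1.41, adjusted p = 0.0173) and Obp22a (8.30), Obp51a (7.25), Obp56f (7.99) and Obp56g (4.09) with a higher one. Both mixed libraries enter this contrast, and without them none passed. Obp19c was then at -4.39 (adjusted p = 0.464, edgeR), Obp51a at -1.22 and Obp56g at -0.06. Obp19c in exposed males of day 2 lay at 0.293 and 0.718 CPM and at 7.13 CPM in the mixed library.

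Across days in males, no member differed in the air arm (edgeR), where 5 had an unadjusted p below 0.05 (15.2% of members and 8.31% of all genes), DESeq2 called Obp56e and 0.155% of all genes passed. In the exposed arm Obp99b did (adjusted p = 0.0446, edgeR), against 0.855% of all genes. Obp99b lay at 356, 273 and 307 CPM on day 1, at 113, 149 and 42.8 CPM on day 2 and at 385, 516 and 411 CPM on day 7 in exposed males. Air males had the same order of days, at 237, 309 and 311 CPM, then 60.2, 204 and 168 CPM, then 392, 360 and 435 CPM, without passing (adjusted p = 0.371, edgeR). The exposed call was lost without the mixed library (adjusted p = 0.104) and without any one of the exposed libraries of days 1 and 7 (adjusted p 0.0855 to 0.108, edgeR). Without exposed replicate 1 of day 2, edgeR called 8 of 36 members among 1975 genes, against 110 genes with all libraries.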

How the data were processed

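Each file holds whole-number read counts by gene for 1 library, deposited by the authors without scaling. Per the submitters' processing notes, fastp, STAR and HTSeq were the tools and dm6 the build. The sources used here give no versions, annotation release or strand setting. The libraries were made with a 3' end kit from total RNA of whole flies, per the labels' protocols. PCR copies are not independent molecules, so intervals and floors cover counting error only. Groups were read from the labels.

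The edgeR 4.0.16 quasi-likelihood F test (R 4.3.3) used TMM scaling after a filterByExpr filter, whose count minimum was 10 and total minimum 15. Each sex was fitted on its 18 libraries, and sex contrasts on all 36. Standard errors are the log2 value divided by the square root of F. P-values were adjusted over all genes tested by the Benjamini-Hochberg method at a threshold of 0.05. Pooled ratios have 95% exact binomial intervals. Counts and shares of genes whose arms did not overlap used CPM after TMM scaling over all 36 libraries. Levels printed by library are scaled to the library total. The 2 mixed libraries had more than 100 CPM of roX1 together with more than 1000 CPM of Yp1, limits set with earlier results known. Symbols were matched to the BDGP6 annotation, which covered 17290 of 17582.

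Members, gene lists and tests were chosen with earlier results of these data known. The photoreceptor list and the mean over days were added after values were seen. Values were given for members past the threshold in an exposure or day comparison, the 5 highest in air in each sex, up to 5 per direction with the largest sex difference, and the 2 with the smallest p where none passed exposure. Other members named with values were chosen after their values were seen. Alternatives were DESeq2 1.42.0, its size factors, library totals, no filter, at least 5 CPM in 3 libraries, a replicate block, leaving out the mixed libraries or each library, only the 6 libraries compared, and the threshold in the series text. The fit was tested on simulated data. No sequences are shown, since none were used here.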

Additional observations from a re-analysis of the deposited data

Results flagged for a closer look

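Some members had exposure effects that differed between groups. Tested as a difference itself, Obp19c in females had an effect on day 2 that was -5.40 from that on day 1 (joint test over days, adjusted p = 0.0122, edgeR). On day 2, subtracting the male effect from the female one gave -6.39 for Obp19c, 8.30 for Obp22a, 7.25 for Obp51a, 7.99 for Obp56f and 4.09 for Obp56g. The first 4 had an adjusted p of 0.0173 and Obp56g one of 0.0253 (edgeR), and none passed without the mixed libraries.

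In other cases, on CPM after TMM scaling over all 36 libraries, arms were apart in opposite directions in different groups. The 3 exposed libraries were then all on one side of the 3 air libraries in one group and all on the other side in another. The share of all genes with such opposite directions was not computed. Between the sexes on day 1 this held for Obp44a, at -1.08 in females and 0.15 in males, and for Obp99a, at -1.42 in females and 0.40 in males. Between the sexes on day 7 it held for Obp44a, at 1.56 in females and -0.09 in males. The test of the difference between sexes passed for neither gene on day 1 (adjusted p = 0.711 for Obp44a and 0.399 for Obp99a, edgeR), nor for Obp44a on day 7 (adjusted p = 1.00, edgeR). In females, Obp19c stood at 1.38 on day 1 and -4.03 on day 2. Between days 1 and 7 in females, the day 1 values were -1.49 for Obp19d, -1.08 for Obp44a, -1.51 for Obp56a, -1.15 for Obp56d, -1.39 for Obp57b and -1.11 for Obp57c, and the day 7 values were 0.92, 1.56, 2.52, 1.18, 0.91 and 1.41. The difference of days 1 and 7 alone was not tested, and the joint test over days passed for none of these 6. In males, Obp44a stood at 0.15 on day 1 and -0.09 on day 7, and that difference was not tested alone. Scaled to the library total only, the male arms of Obp44a overlapped on both days. On day 1 they spanned 495 to 588.4 CPM in air and 571.3 to 613.3 CPM after exposure. Day 7 spans were 375.4 to 439.9 CPM in air and 349.8 to 375.7 CPM after exposure.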

How the results depend on the processing

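Direction was followed only for members past the threshold in a contrast, or for the 2 with the smallest p where none passed. For these it was kept under every alternative run except in the day 2 contrast between sexes. There, without the mixed libraries, Obp51a was at -1.22 and Obp56g at -0.057. Other members given with values were not followed in this way. Leaving out 1 library at a time, Obp51a ranged from -0.79 (without exposed female replicate 1) to 7.83. The other counts follow, and the cause of each shift was not tested.

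Females, day 1 (0 called): library totals 1, no filter 2, replicate block 1, without the mixed libraries 2, only the 6 libraries compared 2, DESeq2 3 and the series threshold 11. Females, day 2 (2 called): no filter 4, only the 6 libraries 0 and the series threshold 10. Females, day 7 (1 called): DESeq2 2 and the series threshold 9. Exposure effect between days in females (1 called): library totals 2, no filter 5, replicate block 4, without the mixed libraries 3 and DESeq2 5. Air females between days (0 called): no filter 3 and DESeq2 2; exposed females between days (4 called): no filter 7 and at least 5 CPM 2. Males: series threshold 1 on day 1 and 9 on day 2, and DESeq2 2 on day 2, each against 0. Air males between days (0 called): without the mixed libraries 4 and DESeq2 1. Exposed males between days (1 called): at least 5 CPM 0, replicate block 0, without the mixed libraries 0 and DESeq2 2. Sex difference of the day 2 effect (5 called): 0 without the mixed libraries. The other counts of calls stayed within 1.5 times.

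Leaving out 1 library gave counts of 0 to 2, 1 to 2 and 0 to 1 for females on days 1, 2 and 7, 1 to 3 for their mean, 1 to 4 for the effect between days, 0 to 1 for air and 1 to 4 for exposed days. In males these were 0 to 0, 0 to 9 and 0 to 0, 0 to 1, 0 to 1, 0 to 0 and 0 to 8. Sex differences gave 28 to 32 in air and 31 to 34 when exposed, and sex differences of the effect 0 to 0, 0 to 7 and 0 to 0.

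Replicate numbers did not pair the samples: deviations of same-numbered libraries correlated at -0.068 to 0.272, below 0.1 in most pairs, and the replicate block is given for its counts only. Library totals moved the median of all genes by 0.20 on day 2 in females, with Obp83b then at -2.66 and Obp19c at -3.78. Obp69a, Obp28a and Obp19a had no count in some exposed female libraries, so their values there were limited by depth.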
